A study of Nicotiana tabacum with 6 samples.

Results

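The genes described here are those of the tobacco leaf whose protein description names a MYB or SANT domain. They were taken from a table of 69500 gene models by the words Myb domain, Myb-like or SANT in the description, leaving out rows that also name a receiver domain or DnaJ. Of 612 rows found in this way, 288 (47.1%) had at least 1 FPKM in at least 3 of the 6 libraries and are the members. FPKM counts sequenced fragments for each kilobase of a transcript and divides them by the size of the library, so levels can be set side by side between genes. The rule looked at levels alone and at no difference between the lines. It is also the filter on low values of the test used below, so a gene that was high in 1 line only could enter through that line.

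The MYB domain is a helix-turn-helix fold that binds DNA, and plants carry many more genes with it than animals do. Proteins with adjacent MYB repeats regulate pigment, lignin and wax synthesis and the shape of epidermal cells; in Arabidopsis GLABRA1 starts leaf hairs, and in Antirrhinum MIXTA shapes conical petal cells. A single MYB-type repeat of the plant class is shared by clock proteins such as CCA1 and LHY of Arabidopsis and by the GARP family with its GLK, KANADI and LUX proteins. Factors of the MYB-CC type include PHR1, the Arabidopsis regulator of the phosphate starvation response. The related SANT domain sits in subunits of chromatin complexes, where it contacts histone tails, and a telobox type of MYB domain binds telomeric repeats.

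Leaves of MuGDH64 were compared with leaves of GDH64. MuGDH64 is an aphid-resistant line of Nicotiana tabacum obtained by cobalt gamma irradiation of GDH64, and GDH64 is the flue-cured parent line. MuGDH64 is 1 stable line, so other changes left by the irradiation travel with the one the study names, a mutation of the cembranoid synthesis gene NtCYC, and cannot be told apart from it. NtCYC itself was not analysed here. The plants stood in the field in randomized blocks, and leaf punches of 3 plants were pooled per plot. Each line had 3 RNA sequencing libraries; no label ties a library to a plot, date or season, so a p value reflects only how far these 3 and 3 libraries vary, which may be technical. The question was which of these regulators differed in level between the irradiated line and its parent.

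Read depth is unknown, since the table holds no counts, and summed FPKM lay between 634425 and 756316 per library. Pearson's r across all tested genes, which are not independent replicates, was 0.969 to 0.980 within a line and 0.947 to 0.961 between lines; GDH64 library 2 correlated least with its own line, and MuGDH64 library 3 had the lowest sum. Summed levels of 287 leaf markers (light-harvesting, Rubisco small subunit and photosystem proteins) ran from 41817 to 46027 FPKM in MuGDH64 and from 42035 to 44756 FPKM in GDH64, so the leaf label holds in both lines. Summed levels of 146 dividing-tissue markers (cyclins, kinesins and core histones) were 684 to 775 FPKM in MuGDH64 and 830 to 910 FPKM in GDH64, without overlap, and 13 of these markers were at 0 in every library. Of the 77 dividing-tissue markers tested, 13 (16.9%) passed as lower and 0 as higher, against 9.74% and 2.20% of all tested gene models. The part of this shift in the results below was not tested. Genes matched by the pollen wording, which also takes expansins, summed to 836 to 905 FPKM in MuGDH64 and to 934 to 984 FPKM in GDH64. Those matched by the seed wording, which also takes lipid transfer proteins, summed to 3228 to 3808 and to 3466 to 4573 FPKM. Of 58 tested by the seed wording, 20.7% passed as lower and 8.62% as higher. Of 46 tested by the pollen wording, 17.4% passed as lower and 4.35% as higher. Of 194 leaf markers tested, 8.25% passed as lower and 2.58% as higher. In bulk leaf RNA, fewer cells of a type and less RNA per cell cannot be told apart.

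In MuGDH64 leaves 43 of the 288 members (14.9%) were lower and 3 (1.04%) were higher than in GDH64 leaves (limma on log2(FPKM + 1), Benjamini-Hochberg adjusted over all 32340 tested gene models, threshold 0.05). Over all tested gene models, 9.74% were lower and 2.20% were higher, so the share of members that fell was above the background and the share that rose was below it. The falls came mostly from 2 of the 7 domain classes: the Myb domain class, whose descriptions give no more than the domain, had 22, and the plant class had 14. The chromatin and telomere-binding classes had 1 fall each and the trihelix class had 0. The 46 called members showed no overlap between the lines. At an unadjusted p under 0.05, 110 members were lower and 8 were higher. The like counts over all tested gene models were not taken for either statement, so neither is read as particular to the members. A called fall with a log2 fold change of -1 or less was seen in 6 members (2.08%), against 1.22% of all tested gene models. None of the 3 rises reached 1 on that scale, while 248 of the 32340 tested gene models passed with such a rise. These fold changes still hold the shift of all tested gene models, whose median was -0.176. Counts taken relative to that median would differ, as values of single genes below show.

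The summed level of the members was 2262.51, 2259.67 and 1990.88 FPKM in the MuGDH64 libraries, against 2718.09, 2950.26 and 2646.67 FPKM in the GDH64 libraries. That is 0.314%, 0.320% and 0.314% of all FPKM in MuGDH64 and 0.362%, 0.390% and 0.363% in GDH64. Each MuGDH64 library lay below each GDH64 library in sum and in share.

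Tested gene models as a whole had a median log2 fold change of -0.176, and fold changes are therefore given relative to it, as the log2 fold change on the log2(FPKM + 1) scale minus that median. Changes of genes near 1 FPKM look smaller on this scale than they are as ratios. The adjusted p of a gene belongs to its change before the median was subtracted. The median relative log2 fold change of the members was -0.12, with quartiles at -0.29 and 0.07, and 189 members (65.6%) lay below the median of all genes, where 50.0% lies by construction. In 123 members (42.7%) each MuGDH64 value lay below each GDH64 value, against 31.8% of all tested gene models. The opposite held for 8 members (2.78%), against 5.68%.

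How many members passed depended on the scaling. After quantile normalization, which gives the libraries the same distribution and brings the median log2 fold change of all genes close to 0, 26 members were lower and 5 higher, against a background of 5.17% lower and 4.43% higher; 26 of the 43 falls and the 3 rises were among them. After the libraries were centred on their medians, 19 members were lower and 5 higher, against 4.28% and 6.0% of all genes. Rises thus made up 6.52% of the members called as deposited, 16.1% after quantile normalization and 20.8% after centring; for all genes these shares were 18.4%, 46.2% and 58.4%. The count of falls also dropped to 28 without MuGDH64 library 2, to 22 without MuGDH64 library 3, to 21 without GDH64 library 1 and to 22 without GDH64 library 2. In these fits, in that order, 5.27%, 4.27%, 4.25% and 4.57% of all tested gene models were lower, so the background dropped as well. In 15 alternative settings no called member changed sign, and 17 of the 46 passed in each setting that could test them.

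**Figure D1:**
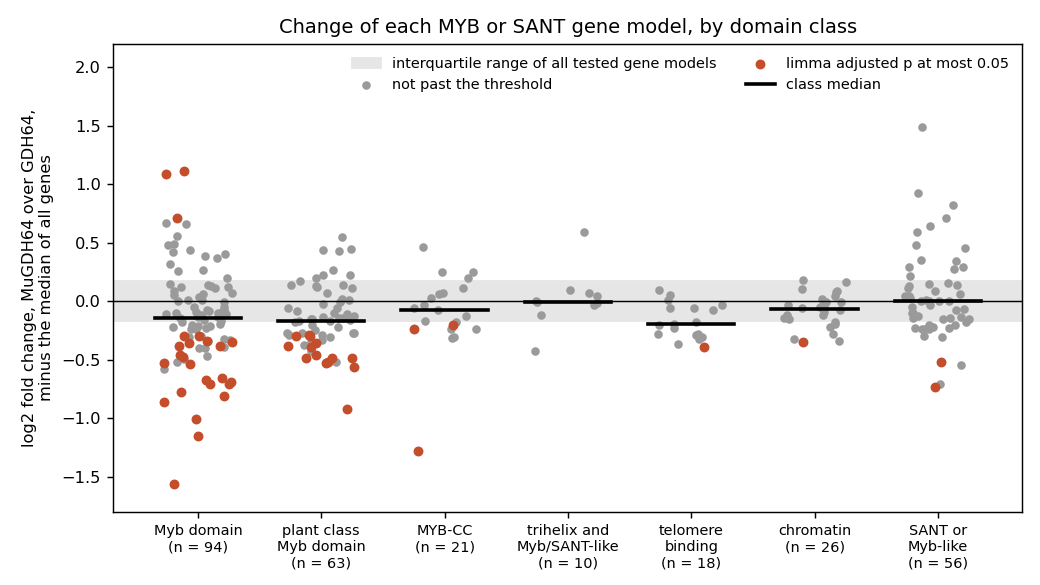
Relative log2 fold change of the 288 members, MuGDH64 over GDH64 minus the median of all tested gene models, by domain class. Each point is 1 gene (red where it passed the limma threshold), the black bars are class medians and the grey band is the interquartile range of all tested gene models; the Myb domain class holds the 3 members that rose and 22 of the 43 that fell, and the plant class holds 14 falls.

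Most of the 324 rows that matched the text but were not kept had little or no signal in leaf. In 158 of them the table gave 0 in all 6 libraries, in 132 each value was under 1 FPKM with some above 0, and 34 reached 1 FPKM in 1 or 2 libraries. At the border of the rule, the third-highest value of a row was 0.97 FPKM in the highest row left out and 1 FPKM in the lowest row kept. How much of a class was kept differed widely. All 18 telomere-binding rows were members, as were 26 of 30 chromatin rows (86.7%), 21 of 29 MYB-CC rows (72.4%), 56 of 91 other SANT or Myb-like rows (61.5%) and 63 of 109 plant class rows (57.8%). Only 94 of 294 Myb domain rows (32.0%) and 10 of 41 trihelix and Myb/SANT-like rows (24.4%) were. The differences between classes were not tested. Tobacco is an allotetraploid with near-identical gene copies, and the sources do not say how reads shared by copies were counted, so a level of 1 copy may include reads of another.

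**Figure D2:**
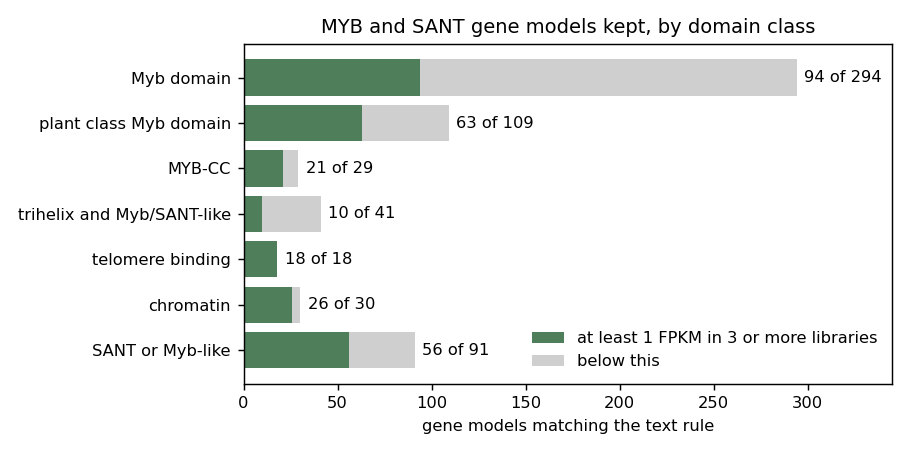
Number of gene models whose description matched, by domain class, split into the members and the rows not kept by the level rule. All 18 telomere-binding rows are members, against 94 of 294 in the Myb domain class.

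The members lay on 281 scaffolds by their identifiers. Only 5 scaffolds held more than 1 member, and of the 12 members on them Nitab4.5_0000278g0160 alone was called. The median level of a class ran from 3.43 FPKM in the other SANT or Myb-like members to 5.76 FPKM in the telomere-binding members, with the MYB-CC members above these at 9.40 FPKM. Of the 288 members, 63 averaged 10 FPKM or more and 19 of these were called. Another 166 averaged 2 to 10 FPKM and 24 were called, and 59 averaged under 2 FPKM and 3 were called. Calls by level were not counted over all tested gene models, so the pattern is not read as particular to the members. With a filter of 5 FPKM, 15.1% of all tested gene models were lower, against 9.74% with the filter of 1 FPKM. In 242 members each library reached 1 FPKM. In 4 members each GDH64 library and no MuGDH64 library reached it, and 1 of these was called. No member showed the opposite. The like counts over all tested gene models were not taken here either, so this imbalance is not read as particular to the members.

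The Myb domain class was the largest, with 94 members and a median level of 4.0 FPKM. Its 3 rises were the only ones among the members, and its 22 falls were 23.4% of the class. The class summed to 778 to 892 FPKM in the MuGDH64 libraries and to 1057 to 1104 FPKM in the GDH64 libraries, without overlap. Its median relative log2 fold change was -0.14. After quantile normalization 16 members were lower and 3 higher, and the falls numbered 13 without MuGDH64 library 3 and 14 without GDH64 library 1. Without these libraries 4.27% and 4.25% of all tested gene models were lower. The domain names do not give the number of MYB repeats, so proteins with adjacent repeats and those with 1 repeat could not be split.

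Among the members called, the one with the largest relative fall was Nitab4.5_0003212g0030 of the Myb domain class. It stood at 9.37, 10.11 and 9.82 FPKM in MuGDH64 leaves, against 31.47, 25.54 and 52.84 FPKM in GDH64 leaves. The MuGDH64 libraries lay close together and the GDH64 libraries were spread, with library 3 highest. The lines did not overlap, which was a condition for naming a fall or rise by its size. The relative log2 fold change was -1.56 (SE 0.22, limma adjusted p = 0.0031), and the ratio of the means was 0.267.

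Nitab4.5_0000766g0070 had 7.36, 8.38 and 6.93 FPKM in MuGDH64 and 17.28, 21.57 and 23.02 FPKM in GDH64. Its relative log2 fold change was -1.16 (SE 0.13, limma adjusted p = 0.000891). Nitab4.5_0000568g0090 had 1.76, 1.57 and 1.33 FPKM in MuGDH64 and 4.38, 4.41 and 5.69 FPKM in GDH64, a relative change of -1.01 (limma adjusted p = 0.00262). Both of these falls passed in all settings that could test them.

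A further group of falls in the class was smaller in size. Nitab4.5_0001369g0030 averaged 3.88 ± 1.05 FPKM in MuGDH64 and 8.91 ± 0.638 FPKM in GDH64 (SD, n = 3 libraries each; relative log2 fold change -0.87, limma adjusted p = 0.00684). Nitab4.5_0000842g0120 averaged 5.21 ± 0.939 FPKM in MuGDH64 and 11.1 ± 2.26 FPKM in GDH64 (-0.78, limma adjusted p = 0.0106). Nitab4.5_0004704g0020 averaged 13.9 ± 2.57 FPKM in MuGDH64 and 26.4 ± 3.72 FPKM in GDH64 (-0.71, limma adjusted p = 0.00952). These genes kept their call in all 15 settings.

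Falls of this kind also occurred at low level. Nitab4.5_0011760g0030 averaged 1.23 ± 0.251 FPKM in MuGDH64 and 3.43 ± 0.597 FPKM in GDH64 (relative log2 fold change -0.81, limma adjusted p = 0.00744). Nitab4.5_0005512g0020 had 1.17, 0.92 and 0.45 FPKM in MuGDH64 and 2.08, 2.48 and 2.52 FPKM in GDH64 (-0.70, limma adjusted p = 0.0187), and missed the threshold without GDH64 library 2 (0.0554). Nitab4.5_0002728g0020 had 1.76, 1.44 and 0.65 FPKM in MuGDH64 and 3.03, 2.88 and 3.35 FPKM in GDH64 (-0.70, limma adjusted p = 0.0269). It passed in 7 of the 14 settings that could test it and not after quantile normalization (0.0661). At levels of about 1 FPKM the table's rounding to 2 decimals and the unknown depth limit how firmly a fold can be read.

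The rises in the class were all moderate. Nitab4.5_0000201g0150 had 5.11, 5.44 and 5.77 FPKM in MuGDH64, against 1.88, 2.96 and 2.31 FPKM in GDH64. The MuGDH64 libraries differed little among themselves and each lay above the highest GDH64 value. The relative log2 fold change was 1.12 (SE 0.15, limma adjusted p = 0.00702), and the ratio of the means was 2.28.

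Nitab4.5_0000436g0250 had 12.15, 13.06 and 10.21 FPKM in MuGDH64 and 6.19, 4.49 and 6.92 FPKM in GDH64 (relative log2 fold change 1.09, limma adjusted p = 0.0106). Both genes passed in all 15 settings. Nitab4.5_0000945g0020 had 10.65, 10.38 and 10.57 FPKM in MuGDH64 and 6.28, 6.22 and 8.59 FPKM in GDH64 (0.71, limma adjusted p = 0.0365). It is the least secure of the rises: it missed the threshold without the filter (0.0693) and without MuGDH64 library 1, 2 or 3 (0.0847, 0.0881 and 0.0967) or GDH64 library 1 or 2 (0.118 and 0.103).

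**Figure D3:**
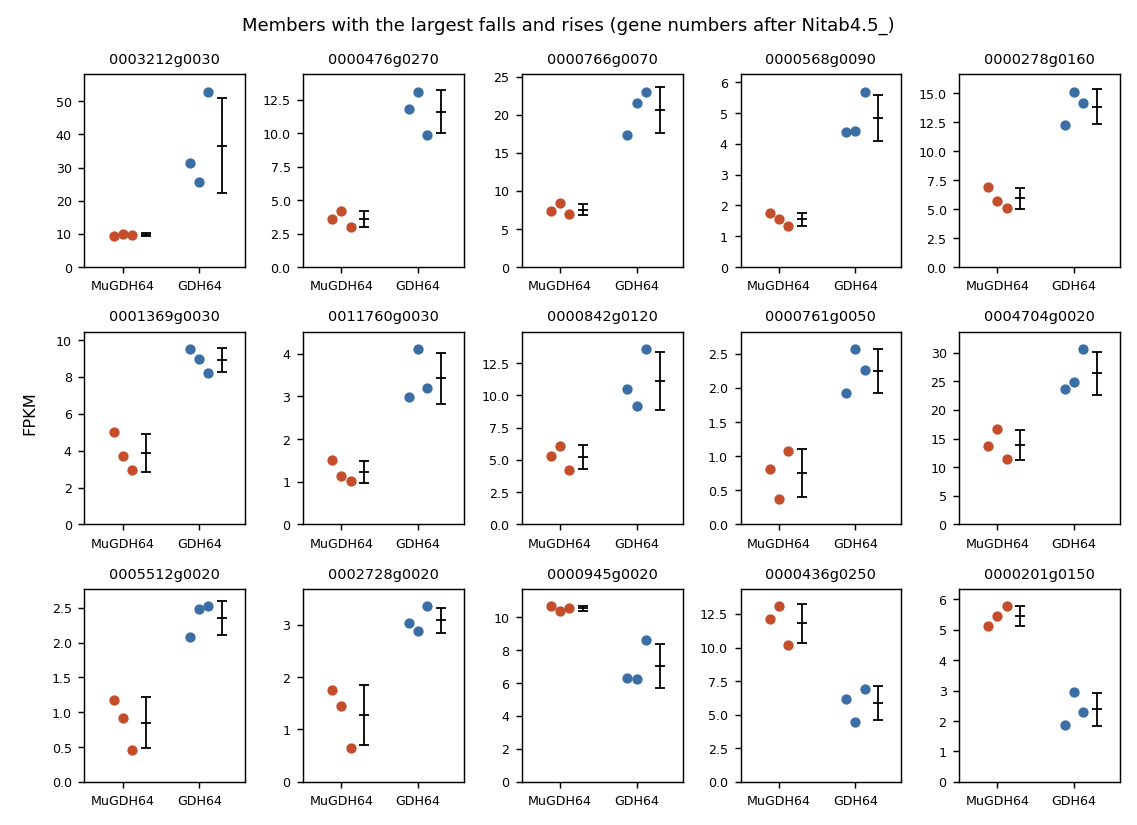
FPKM in each library for the 12 called members with the largest falls and the 3 called members that rose, MuGDH64 left and GDH64 right in each panel. Points are libraries, and the marks beside them are the mean and SD of 3 libraries. Lack of overlap between the lines was a condition for being shown here, and Nitab4.5_0003212g0030 stands at 9.37 to 10.11 FPKM in MuGDH64.

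Of the plant class of MYB domain, 63 members were kept, with a median level of 4.40 FPKM. In MuGDH64 14 of them (22.2%) were lower and 0 were higher, and 8 were lower after quantile normalization with 0 higher. The class summed to 524 to 613 FPKM in MuGDH64 and to 759 to 836 FPKM in GDH64, and its median relative log2 fold change was -0.17. The count of falls varied with the library left out. It was 4, 6 and 12 without GDH64 library 1, 2 or 3, and 11, 8 and 7 without MuGDH64 library 1, 2 or 3. With 1 library left out, 4.25% to 7.86% of all tested gene models were lower, against 9.74% with all libraries.

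The class holds 3 of the 5 members with the highest level. Nitab4.5_0000642g0170 had 69.12, 68.50 and 60.95 FPKM in MuGDH64 and 97.68, 109.52 and 88.53 FPKM in GDH64 (relative log2 fold change -0.39, limma adjusted p = 0.0129). It passed in all 15 settings. Nitab4.5_0021887g0010 had 71.58, 73.02 and 62.47 FPKM in MuGDH64 and 95.69, 101.35 and 91.35 FPKM in GDH64 (-0.30, limma adjusted p = 0.017), and missed the threshold without GDH64 library 1 or 2 (0.0601 and 0.0554). Nitab4.5_0001590g0030 had 77.42, 72.10 and 59.60 FPKM in MuGDH64 and 94.78, 100.03 and 95.35 FPKM in GDH64 (-0.30, limma adjusted p = 0.0271), and passed in 8 of 15 settings. In each of the 3 the highest MuGDH64 value lay under the lowest GDH64 value by more than 10 FPKM.

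The fall of largest relative size in the class was that of Nitab4.5_0000278g0160. It had 6.94, 5.75 and 5.14 FPKM in MuGDH64, against 12.25, 15.15 and 14.20 FPKM in GDH64 (relative log2 fold change -0.93, SE 0.14, limma adjusted p = 0.00255). Nitab4.5_0004892g0040 had 7.72, 8.25 and 7.86 FPKM in MuGDH64 and 13.36, 15.23 and 13.25 FPKM in GDH64 (-0.56, limma adjusted p = 0.00475). Nitab4.5_0000463g0190 had 7.69, 6.72 and 5.87 FPKM in MuGDH64 and 12.16, 12.09 and 10.47 FPKM in GDH64 (-0.52, limma adjusted p = 0.0116). These 3 genes passed in all 15 settings.

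The other members of high level belong to the Myb domain class and did not pass. Nitab4.5_0005060g0020 had 75.70, 82.95 and 75.06 FPKM in MuGDH64 and 90.27, 95.03 and 95.57 FPKM in GDH64 (relative log2 fold change -0.09, limma adjusted p = 0.0781). Nitab4.5_0001373g0030 had 78.96, 76.54 and 61.52 FPKM in MuGDH64 and 91.66, 102.65 and 81.37 FPKM in GDH64 (-0.17, limma adjusted p = 0.107). Ordered by their means within a line, neighbours among the 5 differed by less than the larger of their SDs.

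**Figure D4:**
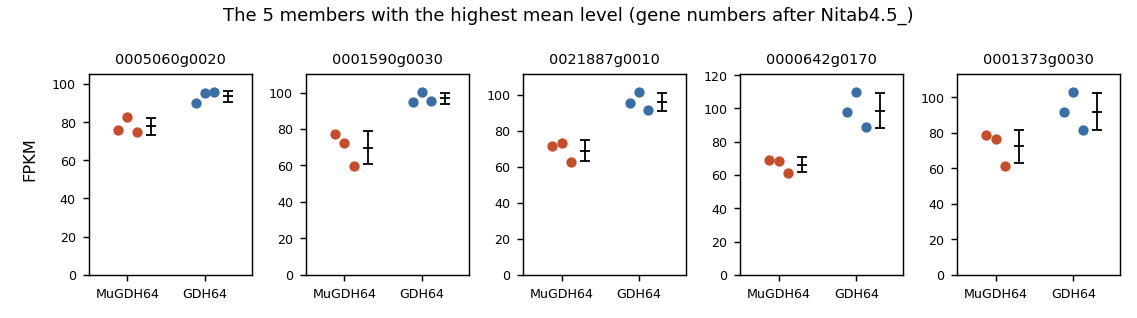
FPKM in each library for the 5 members with the highest mean level, MuGDH64 left and GDH64 right. Points are libraries, and the marks beside them are the mean and SD of 3 libraries; all 5 are lower on average in MuGDH64, and the 3 of the plant class passed the limma threshold.

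MYB-CC proteins, the type of PHR1, had 21 members and the highest median level of the classes. In MuGDH64 3 of them were lower (14.3%) and 0 higher, against 1 lower and 1 higher after quantile normalization. These counts are near the background, which was 9.74% lower as deposited and 5.17% lower after quantile normalization. The class summed to 194 to 214 FPKM in MuGDH64 and to 239 to 289 FPKM in GDH64, and its median relative log2 fold change was -0.08. With 1 library left out, 1 or 2 of its members were lower.

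The fall of largest relative size among the MYB-CC members was that of Nitab4.5_0000476g0270. It had 3.60, 4.15 and 3.02 FPKM in MuGDH64, against 11.83, 13.08 and 9.89 FPKM in GDH64. The lines lay far apart, with a ratio of the means of 0.309 and a relative log2 fold change of -1.28 (SE 0.14, limma adjusted p = 0.000868). It passed in all 15 settings, with an adjusted p of 0.00665 at most.

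The other falls among MYB-CC members were small. Nitab4.5_0006133g0010 had 24.73, 24.49 and 22.63 FPKM in MuGDH64 and 31.24, 32.00 and 31.21 FPKM in GDH64 (relative log2 fold change -0.21, limma adjusted p = 0.0291). Nitab4.5_0008054g0010 had 23.99, 21.14 and 19.62 FPKM in MuGDH64 and 26.81, 31.67 and 28.96 FPKM in GDH64 (-0.24, limma adjusted p = 0.0446). They passed in 6 and 4 of 15 settings and missed the threshold after quantile normalization (0.0519 and 0.0752).

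Telomere-binding MYB proteins came in a type with a linker histone domain, like the TRB proteins of Arabidopsis, and a type with a ubiquitin-like domain, like its TRFL proteins. Of the 18 members 1 was lower and 0 were higher, and 0 were called after quantile normalization. The class summed to 101 to 112 FPKM in MuGDH64 and to 129 to 155 FPKM in GDH64, and its median relative log2 fold change was -0.20. The called member, Nitab4.5_0001975g0010 with a linker histone domain, had 1.80, 2.34 and 2.36 FPKM in MuGDH64 and 3.19, 4.01 and 3.84 FPKM in GDH64 (relative log2 fold change -0.39, limma adjusted p = 0.0377). It passed in 4 of 14 settings. Of the 12 members with a linker histone domain, 7 had each MuGDH64 value below each GDH64 value, as had 5 of the 6 with a ubiquitin-like domain, against 31.8% of all tested gene models. The 1 call among 18 (5.56%) lay under the background of 9.74%, and with library weights 4 of the 18 were lower, against 15.5% of all tested gene models.

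Among these, Nitab4.5_0008900g0010 of the ubiquitin type had 13.43, 11.67 and 10.55 FPKM in MuGDH64 and 15.15, 20.25 and 15.64 FPKM in GDH64 (limma adjusted p = 0.0589). Nitab4.5_0002040g0020 of the linker histone type had 6.39, 5.45 and 4.74 FPKM in MuGDH64 and 7.03, 8.33 and 8.43 FPKM in GDH64 (limma adjusted p = 0.0611). Neither passed, though both did in the test limited to genes of 5 FPKM or more (limma adjusted p = 0.04 and 0.0493).

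The chromatin class held 26 members, subunits of complexes that move, mark or bind nucleosomes. In MuGDH64 1 (3.85%) was lower and 0 were higher, against 9.74% and 2.20% of all tested gene models. After quantile normalization 0 were called. With library weights 3 of the 26 were lower, against 15.5% of all tested gene models. The class summed to 101 to 110 FPKM in MuGDH64 and to 117 to 161 FPKM in GDH64, with a median relative log2 fold change of -0.07. Finer groups within it were made after the descriptions had been read and are given as values only.

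Proteins with a SWIRM domain, the domain of the SWI3 subunits of SWI/SNF remodelling complexes, had 7 members besides the ADA2 type, and in each of the 7 each MuGDH64 value lay below each GDH64 value, a pattern that 31.8% of all tested gene models showed. Only 1 of the 7 passed: Nitab4.5_0009466g0040, which also names a ZZ-type zinc finger, had 2.09, 2.78 and 2.34 FPKM in MuGDH64 and 3.65, 4.13 and 3.88 FPKM in GDH64 (relative log2 fold change -0.35, limma adjusted p = 0.0382). It passed in 4 of 14 settings and not after quantile normalization (0.142). Nitab4.5_0001756g0010 had 4.71, 5.55 and 5.0 FPKM in MuGDH64 and 7.01, 7.01 and 6.60 FPKM in GDH64, and did not pass (limma adjusted p = 0.066; 0.0388 with library weights). Nitab4.5_0000322g0040 had 2.29, 2.22 and 1.59 FPKM in MuGDH64 and 3.01, 4.38 and 2.70 FPKM in GDH64 (limma adjusted p = 0.0953).

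No member passed in the other chromatin groups. These were 4 of the transcriptional adaptor 2 type, which belong to histone acetyltransferase complexes, and 4 of the ISWI type, ATP-dependent remodellers that space nucleosomes. The rest included 2 LIN-9 or ALWAYS EARLY proteins, 5 with a helicase/SANT-associated domain, 2 with ELM2 and ARID domains and 2 with a bromodomain. The wording of the class does not take the 2 SWR1-complex protein 4 types, which belong to the complex that deposits the histone variant H2A.Z. Neither of these passed. Among the ISWI members the relative log2 fold change ran from -0.12 to 0.02, and among the adaptor 2 members from -0.07 to 0.08.

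Of the 5 members with a helicase/SANT-associated domain, Nitab4.5_0002223g0030 varied widely between libraries. It had 5.61, 7.48 and 9.02 FPKM in MuGDH64 and 5.37, 28.01 and 7.61 FPKM in GDH64, and the lines overlapped. A single high value, in GDH64 library 2, set its GDH64 mean.

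The 10 trihelix and Myb/SANT-like members include GT factors first described as binding light-responsive promoter elements. As deposited they gave 0 calls in either direction, with 2 at an unadjusted p under 0.05. After quantile normalization these 10 members also gave 0 calls. Their median relative log2 fold change was -0.00, and they summed to 28.5 to 35.8 FPKM in MuGDH64 and to 37.7 to 39.4 FPKM in GDH64. Nitab4.5_0018960g0020 had 3.17, 2.78 and 1.99 FPKM in MuGDH64 and 5.67, 4.34 and 3.62 FPKM in GDH64 (limma adjusted p = 0.0654; 0.0239 with library weights, the 1 call in the class there). The GT3 type Nitab4.5_0000490g0020 had 1.26, 1.57 and 1.72 FPKM in MuGDH64 and 0.80, 0.62 and 1.27 FPKM in GDH64, with overlap (limma adjusted p = 0.148). Another of that type, Nitab4.5_0000581g0190, had 3.67, 3.61 and 2.83 FPKM in MuGDH64 and 3.77, 4.76 and 4.54 FPKM in GDH64 (limma adjusted p = 0.191).

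The remaining 56 members name a SANT or Myb-like domain without one of the features above. Of these 2 (3.57%) were lower and 0 higher, against 9.74% and 2.20% of all tested gene models. After quantile normalization 1 was lower and 1 higher. With library weights 6 of the 56 were lower, against 15.5% of all tested gene models. These 56 members are the class whose summed level overlapped, at 265 to 309 FPKM in MuGDH64 and 287 to 366 FPKM in GDH64. Their median relative log2 fold change was 0.00. Nitab4.5_0001960g0060 had 7.75, 10.55 and 8.75 FPKM in MuGDH64 and 14.01, 17.42 and 14.06 FPKM in GDH64 (-0.52, limma adjusted p = 0.017), and missed the threshold after quantile normalization (0.0505), after centring (0.0517), without MuGDH64 library 3 (0.0557) and without GDH64 library 2 (0.0524). Nitab4.5_0000761g0050, with the SANT-associated domain that the Arabidopsis centromere protein KNL2 carries, had 0.81, 0.38 and 1.07 FPKM in MuGDH64 and 1.93, 2.57 and 2.26 FPKM in GDH64 (-0.73, limma adjusted p = 0.0184). It missed the threshold after centring (0.0626) and without GDH64 library 2 (0.0585).

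Nitab4.5_0001599g0170 of the same class had 5.87, 3.25 and 3.19 FPKM in MuGDH64 and 7.71, 9.45 and 5.07 FPKM in GDH64, with overlap (limma adjusted p = 0.0872). It passed with library weights (0.0404) and without MuGDH64 library 1 (0.0408) or GDH64 library 3 (0.0425). The 2 ribonuclease J members, RNA-processing enzymes that carry a Myb-like stretch, did not pass. In 4 of all 288 members at least 1 library was listed at 0, and 0 of these were called. One of them, Nitab4.5_0004186g0020, had 8.62, 2.93 and 3.26 FPKM in MuGDH64 and 1.29, 0 and 3.61 FPKM in GDH64 (limma adjusted p = 0.131).

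**Figure D5:**
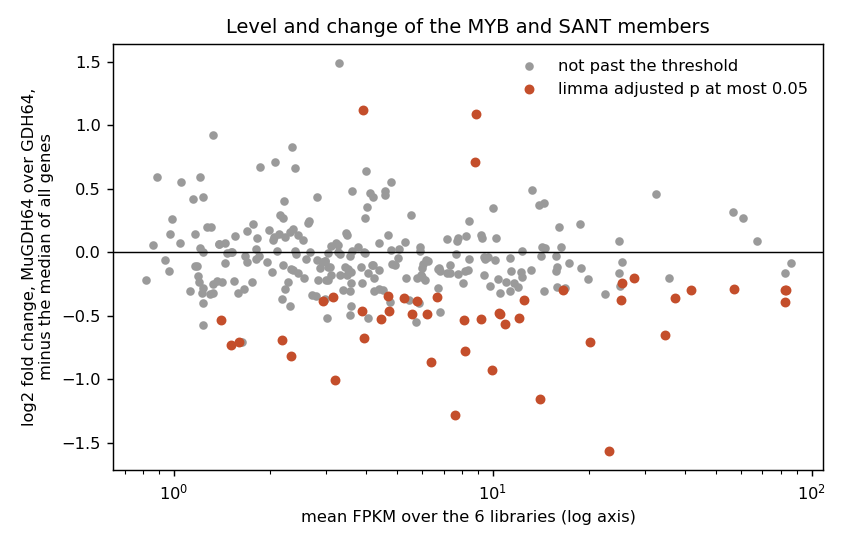
Mean level over all 6 libraries (FPKM, log axis) against relative log2 fold change for the 288 members, with called members in red. Of the 63 members at 10 FPKM or more 19 were called, and of the 59 members under 2 FPKM 3 were called. Calls by level were not counted over all tested gene models.

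MYB proteins work with other regulators and on known sets of genes, and lists of these were read from the same fit. The background for each list is 9.74% lower and 2.20% higher as deposited, and 5.17% and 4.43% after quantile normalization. Some basic helix-loop-helix factors are partners of MYB proteins in the complexes that switch on pigment and leaf hair genes. The list takes the whole family by its domain name. It had 151 tested genes, of which 39 (25.8%) were lower and 1 (0.66%) higher. After quantile normalization 20 were lower and 3 higher, and with 1 library left out 16 to 31 were lower. Their median relative log2 fold change was -0.18. Nitab4.5_0001117g0060, which carries the N-terminal domain through which MYC-type factors bind MYB proteins, had 4.35, 3.92 and 4.13 FPKM in MuGDH64 and 8.33, 9.82 and 7.40 FPKM in GDH64 (relative log2 fold change -0.71, limma adjusted p = 0.00522). Nitab4.5_0010381g0010 had 3.83, 3.63 and 3.36 FPKM in MuGDH64 and 7.15, 7.70 and 7.04 FPKM in GDH64 (-0.67, limma adjusted p = 0.00369).

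Enzymes of the phenylpropanoid and flavonoid pathway, a set of genes that MYB proteins regulate in many plants, had 25 tested genes. Of these 7 (28%) were higher and 2 (8%) lower in MuGDH64, and 16 did not pass. Over all tested gene models 2.20% were higher and 9.74% lower. After quantile normalization 9 were higher and 2 lower, against 4.43% and 5.17% of all tested gene models. Their median log2 fold change was 0.02 as deposited and 0.20 relative to all genes. Leaving out MuGDH64 library 1 or 3 left 4 higher, and the other libraries left 5 or 6. By enzyme, 4 of 7 of the chalcone synthase type, which make the first flavonoid, were higher and 0 lower, 2 of 11 chalcone isomerases were higher and 0 lower, and 1 of 7 ammonia-lyases, which open the pathway from phenylalanine, was higher and 2 were lower. Nitab4.5_0003904g0060 of the chalcone synthase type had 98.66, 94.15 and 103.59 FPKM in MuGDH64 and 45.25, 53.10 and 61.22 FPKM in GDH64 (relative log2 fold change 1.07, limma adjusted p = 0.00348). The ammonia-lyase Nitab4.5_0012382g0010 had 1.85, 2.67 and 1.37 FPKM in MuGDH64 and 5.39, 5.79 and 6.22 FPKM in GDH64 (-1.04, limma adjusted p = 0.00444).

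Of 28 synthases of very-long-chain lipids and wax, a set with targets of MYB factors in Arabidopsis, 14 (50%) were lower and 0 higher. Of all tested gene models 9.74% were lower and 2.20% higher. After quantile normalization 9 of the 28 were lower and 0 higher. With 1 library left out 7 to 10 were lower. Their median relative log2 fold change was -0.19. Genes with a CCT domain or of the GIGANTEA type act in light signalling and the clock beside the single-repeat MYB proteins. Of 45 tested, 20 (44.4%) were lower and 1 (2.22%) higher, against the same background. After quantile normalization 13 were lower and 1 higher, and with 1 library left out 7 to 16 were lower. Nitab4.5_0000935g0190, with a CCT domain, had 8.90, 9.83 and 9.58 FPKM in MuGDH64 and 14.93, 15.63 and 16.66 FPKM in GDH64 (relative log2 fold change -0.51, limma adjusted p = 0.0057). Nitab4.5_0013324g0010, with B-box and CCT domains, had 27.03, 23.81 and 22.77 FPKM in MuGDH64 and 42.28, 37.53 and 36.28 FPKM in GDH64 (-0.46, limma adjusted p = 0.00882).

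SPX proteins, which bind PHR1 in a phosphate-dependent way, had 26 tested genes, of which 2 (7.69%) were lower and 0 higher. That share of falls lay under the 9.74% of all tested gene models, and 0 were called after quantile normalization. Their median relative log2 fold change was 0.06. Nitab4.5_0002228g0050, an SPX protein with a transporter domain, had 2.28, 1.61 and 1.33 FPKM in MuGDH64 and 2.93, 3.88 and 3.68 FPKM in GDH64 (-0.55, limma adjusted p = 0.0286). Nitab4.5_0000568g0160, an SPX and EXS protein of the PHO1 type, had 1.41, 1.44 and 1.24 FPKM in MuGDH64 and 2.22, 2.62 and 2.22 FPKM in GDH64 (-0.33, limma adjusted p = 0.0478). By its identifier it lies on the scaffold of the called Myb domain gene Nitab4.5_0000568g0090.

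Light-harvesting proteins, which GLK factors of the GARP family regulate in Arabidopsis, had 63 tested genes, of which 14 (22.2%) were lower and 2 (3.17%) higher. Of all tested gene models 9.74% were lower and 2.20% higher. Their balance turned with the scaling: 7 were lower and 3 higher after quantile normalization, and 7 were lower and 9 higher after centring. With any 1 library left out 5 to 8 were lower. Nitab4.5_0000592g0360 had 16.22, 18.02 and 13.39 FPKM in MuGDH64 and 35.69, 38.64 and 29.08 FPKM in GDH64 (relative log2 fold change -0.90, limma adjusted p = 0.00355). Nitab4.5_0002814g0030 had 13.41, 14.73 and 10.77 FPKM in MuGDH64 and 26.30, 27.86 and 24.84 FPKM in GDH64 (-0.80, limma adjusted p = 0.00313).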

How the data were processed

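Leaf RNA of 3 MuGDH64 and 3 GDH64 libraries was sequenced as TruSeq libraries, per the labels' protocols. The submitters' processing notes name TopHat2 and Cufflinks; settings, genome build and annotation were not given in the sources used here. Genes carry Nitab4.5 identifiers. The authors deposited 1 table of 69500 gene models with domain names and 6 library columns, whose values were taken as FPKM by inference from Cufflinks and from non-whole values, since the file header gives no unit. The authors' line means were not used. No counts could be recovered, so depth is unknown. Gene names and sequences are not used here, because no identifier matched the reference table.

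limma 3.58.1 (R 4.3.3) was run with the mean-variance trend on log2(FPKM + 1), with the line as the only term, two-sided, on the 32340 gene models that reached 1 FPKM in 3 libraries or more, and adjusted by the Benjamini-Hochberg method at 0.05. The script was tested on simulated data. Named members are up to 12 rises and 12 falls of largest size among called members without overlap and with a mean of at least 2 FPKM in the higher line, the 5 of highest level, up to 3 of smallest adjusted p per class and up to 2 called genes per partner list; other genes named were chosen after their values were seen. Members, classes and lists were chosen with earlier results of these data known. Alternatives were quantile normalization, median-centring, a rescaled sum, no trend, library weights, no filter, a filter of 5 FPKM, a pseudocount of 0.1, a block for the replicate number, and the removal of each library in turn. Python 3.11.15, pandas 2.3.3 and matplotlib 3.10.9 made the tables and plots.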

Additional observations from a re-analysis of the deposited data

How the results depend on the processing

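Of the 288 members 43 were lower and 3 higher in MuGDH64 as deposited. Quantile normalization gave 26 lower and 5 higher, centring on library medians 19 lower and 5 higher, and the test without a filter 27 lower; for the first 2, the alternative itself takes out the shift between the lines. With 1 library left out, 21 to 33 were lower and 2 to 4 higher, with fewer samples in each fit. In these fits 4.25% to 7.86% of all tested gene models were lower. Whether library numbers pair the samples could not be decided, since each correlation between deviations from the line means was small. Same-numbered libraries correlated at 0.0148, 0.0131 and 0.0511. MuGDH64 library 1 correlated best with GDH64 library 2 (0.0281), while MuGDH64 libraries 2 and 3 correlated best with the GDH64 library of their own number. With the replicate number as a block 47 members were lower and 3 higher, and Nitab4.5_0001373g0030 and Nitab4.5_0018960g0020 newly passed (limma adjusted p = 0.0468 and 0.0331). Library weights gave 62 lower and 4 higher, against 15.5% and 3.91% of all tested gene models. A rescaled sum, no trend and a pseudocount of 0.1 left both counts within 1.5 times. A filter of 5 FPKM tested only 127 members, of which 38 were lower and 3 higher. In that fit 15.1% of all tested gene models were lower and 2.94% higher. Over the named members and settings, 436 results kept direction and side of the threshold, 69 missed it, 9 newly passed it and 0 reversed. Unknown depth and rounding to 2 decimals limit members near 1 FPKM.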

Other observations

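Of 25 rows that name a MYB-type domain together with a receiver domain or DnaJ and so are no members, 23 carry the receiver domain of two-component signalling, the type of the cytokinin response regulators of Arabidopsis. Of these 17 were tested, with 1 (5.88%) lower and 0 higher in MuGDH64, against 9.74% and 2.20% of all tested gene models. Both DnaJ rows were tested and 0 were called (limma adjusted p at the 0.05 threshold). The count of 17 tested and 1 lower stands beside 14 lower of 63 in the plant class; the difference was not tested.

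Among the members on shared scaffolds, Nitab4.5_0000109g0340 of the Myb domain class had 0.53, 0.99 and 0.43 FPKM in MuGDH64 and 1.55, 2.60 and 1.27 FPKM in GDH64 (limma adjusted p = 0.0567). Its neighbours by identifier, the MYB-CC gene Nitab4.5_0000109g0160 and the plant class gene Nitab4.5_0000109g0060, stood at adjusted p of 0.264 and 0.198 in the same fit. Nitab4.5_0000278g0070, on the scaffold of the called Nitab4.5_0000278g0160, had 3.84, 6.23 and 5.90 FPKM in MuGDH64 and 6.69, 7.04 and 6.30 FPKM in GDH64 (limma adjusted p = 0.244).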
